A study of Mus musculus with 4 samples.

Results

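Expression of the endoplasmic reticulum (ER) chaperones and of Xbp1 was examined in mouse liver. The 10 genes were Hspa5, Hsp90b1, Pdia4, Pdia6, Creld2, Sdf2l1, Dnajb9, Hyou1, Manf and Xbp1. A gene was measured where a probe set, a group of array probes read as a single value, carried its symbol and no other, which held for 9 of the 10 among 22180 genes on the array. The only probe set that lists Pdia4 lists a second gene too, so Pdia4 has no value here. Each of the other 9 had 1 probe set. RNA of C57BL/6 mice older than 2 months was pooled by genotype and diet, with both sexes in every pool, and each pool was read on 1 Affymetrix array. The pools were wild-type (WT) mice on a 70% fructose diet for 3 weeks (7 livers), WT mice on regular chow (7 livers), Chrebp-null mice on the fructose diet for 2 weeks (6 livers), and WT mice on that diet for 2 weeks (4 livers). Chrebp is the common name of Mlxipl, a transcription factor gene of the response to sugar.

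The ER is where secreted and membrane proteins fold, and hepatocytes, which secrete most plasma proteins, carry a large one. When unfolded proteins build up there, sensors in its membrane start the unfolded protein response. The sensor IRE1, encoded by Ern1, splices Xbp1 mRNA, which then encodes an active transcription factor, and the sensor ATF6 is cut to release another. Both factors raise the transcription of chaperone genes. Many such genes carry an ER stress response element (ERSE) in the promoter, where NF-Y binds the CCAAT end and ATF6 the CCACG end.

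The promoters of the chaperone genes are shown first because several share this element. In the RefSeq promoter table (GRCm38.p6, 250 bases before to 50 bases after each start site) 8 of the 10 genes had an entry, all but Hyou1 and Manf. The ERSE was searched on both strands as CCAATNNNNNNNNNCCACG. It was found in Creld2, Hsp90b1, Hspa5 and Pdia6, 4 of these 8 genes, and in 37 of all 27025 genes of the table (0.137%). Hspa5 and Creld2 are printed in full as the best known ERSE gene and the gene with the largest difference on fructose, and Pdia6 and Hsp90b1 as the stretch with 15 bases either side of the matches. Capitals mark the element, and each sequence runs 5′ to 3′ on the strand of its gene.
Hspa5, chr2:34771840-34772139, plus strand: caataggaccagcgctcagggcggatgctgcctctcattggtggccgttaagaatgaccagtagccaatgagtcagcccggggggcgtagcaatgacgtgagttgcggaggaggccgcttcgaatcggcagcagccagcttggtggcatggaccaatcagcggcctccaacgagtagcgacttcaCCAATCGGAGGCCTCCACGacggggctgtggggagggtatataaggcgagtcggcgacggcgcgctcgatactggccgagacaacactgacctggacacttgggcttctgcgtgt
Creld2, chr15:88819396-88819695, plus strand: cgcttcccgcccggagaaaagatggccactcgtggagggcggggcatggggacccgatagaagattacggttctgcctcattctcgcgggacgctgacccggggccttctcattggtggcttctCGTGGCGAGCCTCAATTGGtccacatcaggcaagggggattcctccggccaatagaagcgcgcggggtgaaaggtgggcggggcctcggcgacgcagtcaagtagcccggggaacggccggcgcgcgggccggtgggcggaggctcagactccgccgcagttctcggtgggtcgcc
Pdia6, within chr12:17266339-17266638, plus strand: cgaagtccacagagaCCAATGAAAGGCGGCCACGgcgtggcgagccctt
Hsp90b1, within chr10:86705395-86705694, minus strand: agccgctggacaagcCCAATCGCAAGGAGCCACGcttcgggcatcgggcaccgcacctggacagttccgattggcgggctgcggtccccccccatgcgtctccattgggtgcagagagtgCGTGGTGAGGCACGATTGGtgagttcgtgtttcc
The Hspa5 match lay from -65 to -47 bases from the start site and the Pdia6 match from -98 to -80, both on the strand of the gene. The Creld2 match, from -126 to -108, was on the opposite strand and so is printed as its reverse complement. Hsp90b1 held 2 matches, from -212 to -194 on its own strand and from -107 to -89 on the other. A related element, ERSE-II (ATTGGNCCACG, which shares the letters CCACG with the ERSE), and the core of the XBP1 site (TGACGTGG) were found in none of the 8 promoters. They occurred in 12 genes (0.0444%) and 193 genes (0.714%) of the table. Only exact matches were searched, so copies that differ by a letter were not counted, also in the genes named here. These matches are letters in a window and do not show binding.

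**Figure D1:**
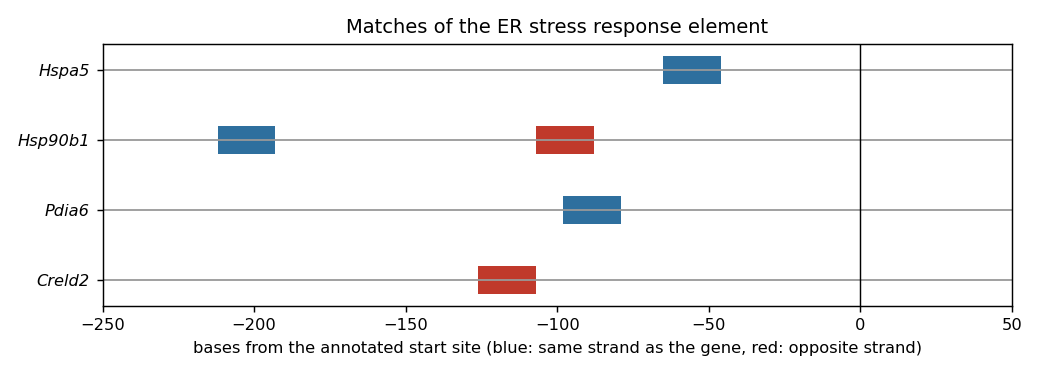
Position of ERSE matches (19 bases each) in the promoters of Hspa5, Hsp90b1, Pdia6 and Creld2, in bases from the annotated start site; blue marks the strand of the gene and red the opposite strand. All 5 matches lie before the start site, between -212 and -47.

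The series design names 2 comparisons, which share no array. The fructose comparison sets WT mice after 3 weeks of fructose over chow-fed WT mice, and the Chrebp-null comparison sets Chrebp-null over WT mice after 2 weeks of fructose. All values are log2, a difference is the first array minus the second, and a gene was assessed where the higher array reached a floor of 3.52, the median of mean levels over genes. With 1 array per pool there is no standard deviation and no test, so no difference can be set against the spread between replicates. The distance between the WT pools at 3 and 2 weeks, which differ in weeks and mice and are not replicates, is the only measure of how far pools of 1 genotype and diet lay apart. Pearson's r between arrays lay between 0.974 and 0.982 over all 41345 probe sets, and 10869 genes reached the floor on the 2-week WT array, against 11209 to 11239 on the others. Mlxipl read 8.09 in the Chrebp-null pool, against 9.83 in the 2-week WT pool, lower as the label says, though the sources used here do not say whether its probes lie in the deleted stretch. All 9 genes were above the floor in both comparisons.

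After 3 weeks of fructose the ER chaperone genes read lower than on chow. All 9 differences were below 0, with a median of -0.34, against -0.05 over the 11717 genes assessed, of which 56.5% were below 0. Creld2 and Sdf2l1 were at least 2-fold lower, and none of the 9 was at least 2-fold higher. Of all genes assessed, 1.16% passed 2-fold downward and 0.64% upward. At 1.5-fold the count was 4 of 9, with Hyou1 and Pdia6 added, against 7.05% of all genes. The other 5 genes differed by less. Manf at -0.07 and Xbp1 at -0.02 lay close to the median of all genes. With the dependence of differences on level removed by lowess, Xbp1 stood at 0.03 and the other 8 stayed below 0. Under that setting 105 genes passed 2-fold downward and 93 upward, against 136 and 75 on the deposited values, and Sdf2l1 stood at -0.96, just inside 2-fold.

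Creld2, which encodes an ER protein with EGF-like domains that is induced by ER stress, read 7.12 after 3 weeks of fructose, against 8.31 on chow. That is a log2 difference of -1.19, a 2.28-fold ratio, and it ranked 53 from the lowest of 11717 genes. The 2-week WT pool read 7.27, or -1.03 from the same chow array, and the Chrebp-null pool read 7.58. All 3 fructose pools thus lay below chow, and the WT pools lay 0.15 apart. Creld1, the paralogue of Creld2, read 4.98 after 3 weeks of fructose, against 5.87 on chow, a difference of -0.89, and the 7 paralogues assessed had a median of -0.13 in that comparison and 0.16 in Chrebp-null over WT livers at 2 weeks.

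Sdf2l1, a partner of ER Hsp40 proteins that keeps client proteins soluble, read 5.67 after 3 weeks of fructose, against 6.71 on chow, a difference of -1.04 (2.06-fold). The 2-week WT pool read 6.00 and the Chrebp-null pool 5.91. The order was the 3-week WT pool lowest, then Chrebp-null, then 2-week WT, with chow highest. The lower 3 spanned 0.33, and chow stood 0.71 above the nearest of them. With the 2-week pool over chow Sdf2l1 was thus under 2-fold.

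Hyou1, an Hsp70-related exchange factor that resets the ATPase cycle of BiP, read 8.17 after 3 weeks of fructose, against 9.03 on chow (-0.86, 1.82-fold). It read 8.40 in the 2-week WT pool, -0.63 from chow, and 8.53 in the Chrebp-null pool, -0.50 from chow. As for Creld2 and Sdf2l1, chow was the highest pool and the 3-week WT pool the lowest.

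Pdia6, a protein disulfide isomerase that also binds the sensors IRE1 and PERK, read 9.03 after 3 weeks of fructose, against 9.79 on chow (-0.76, 1.69-fold). In the 2-week WT pool it read 9.67, -0.12 from chow. The difference between the WT fructose pools, -0.64, was close in size to the difference from chow at 3 weeks.

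Hspa5 encodes BiP, the Hsp70 of the ER and the chaperone that holds the sensors inactive. It read 8.09 after 3 weeks of fructose, against 8.43 on chow (-0.34), and the 2-week WT pool read 8.43 as well. The Chrebp-null pool, at 8.75, was the highest. Hsp90b1, the Hsp90 of the ER known as GRP94, spanned 0.22 over the 4 arrays, the least of the 9 genes. It read 11.11 after 3 weeks of fructose, against 11.33 on chow, with 11.13 in the 2-week WT pool and 11.22 in the Chrebp-null pool.

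Dnajb9, an Hsp40 that helps BiP bind IRE1 and misfolded proteins, read 9.20 after 3 weeks of fructose, against 9.36 on chow (-0.16). The 2-week WT pool read 8.97 and was the lowest. Manf, a small ER protein that is secreted under stress, read 4.42 after 3 weeks of fructose, against 4.49 on chow (-0.07), and 4.12 in the 2-week WT pool. For both genes the 2-week pool lay further below chow than the 3-week pool.

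Xbp1 read 8.87 after 3 weeks of fructose, against 8.89 on chow (-0.02), which is in the middle of all genes, with 54.4% of them lower. It read 8.74 in the 2-week WT pool and 8.65 in the Chrebp-null pool. Its whole span over the 4 arrays was 0.24. The value is total Xbp1 signal and does not separate spliced from unspliced mRNA.

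**Figure D2:**
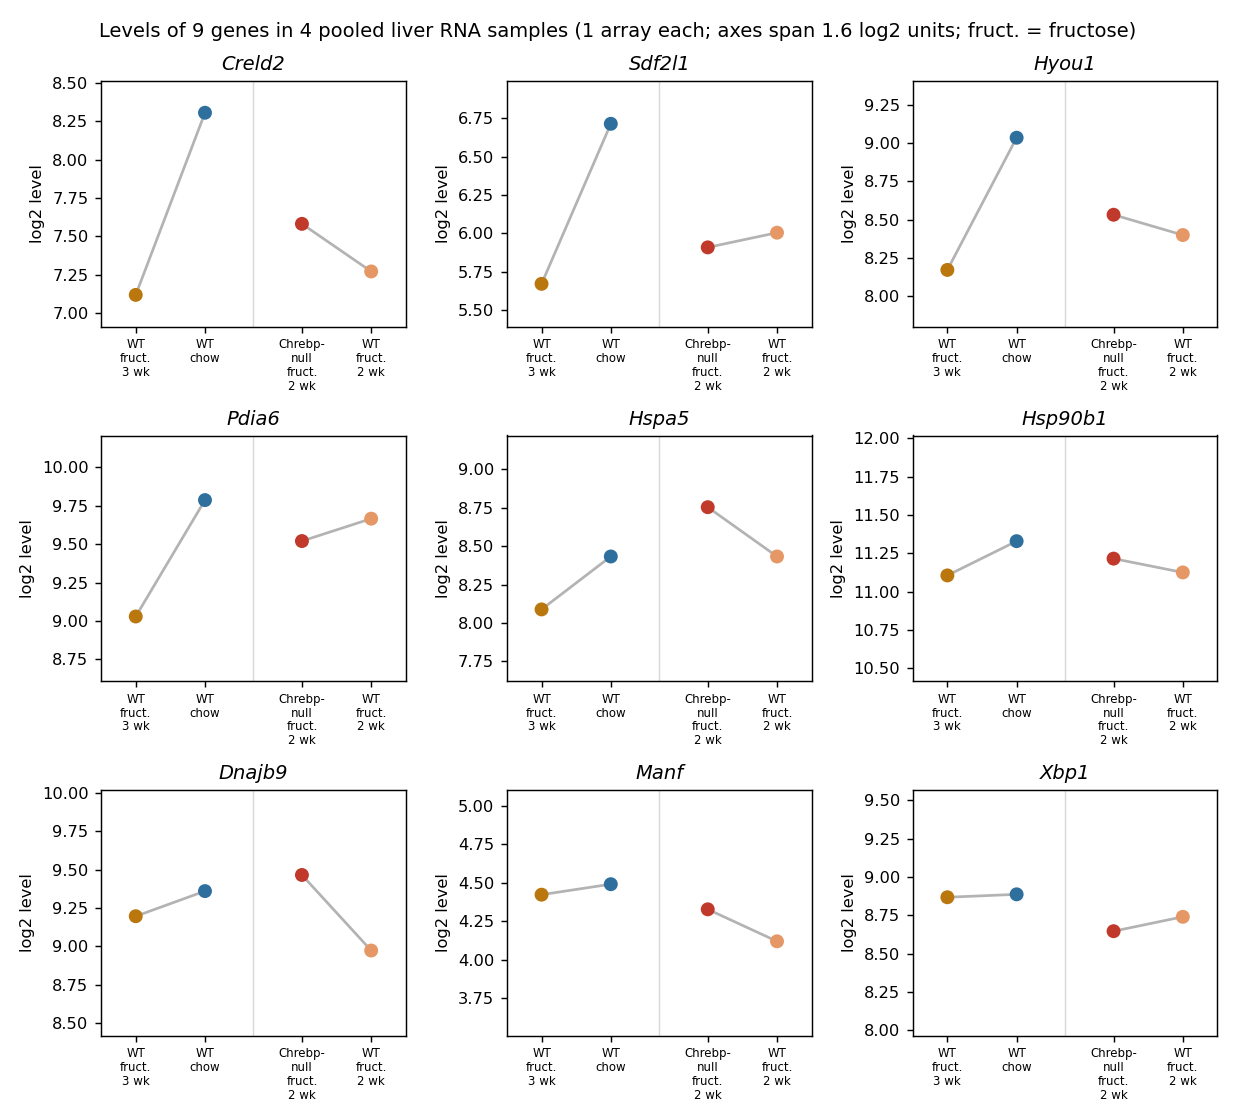
Log2 level of each gene (vertical axis, 1.6 log2 units in every panel) in the 4 pools, 1 array each; grey lines join the pools of each comparison. Creld2, Sdf2l1, Hyou1 and Pdia6 have the largest differences of the 3-week WT pool from chow, between -1.19 and -0.76, and Xbp1 differs by -0.02.

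The 2-week WT pool over chow uses the same chow array, so it is no separate check. The median was -0.37, against -0.04 over 11622 genes. Of the 9 genes, 8 were below chow by 0.12 or more and Hspa5 did not differ at 2 decimals. Creld2 was the only one of the 9 at least 2-fold lower, against 1.41% of all genes, and Creld2, Sdf2l1 and Hyou1 were at least 1.5-fold lower, against 6.44%. The Chrebp-null pool differs from chow in genotype and diet at once. It was below chow for 7 of the 9, with a median of -0.24. Of the 11720 genes assessed 42.5% were below chow, and their median was 0.06. Sdf2l1 at -0.81 and Creld2 at -0.72 were at least 1.5-fold lower there, against 4.78% of all genes, and Hspa5 stood at 0.32 and Dnajb9 at 0.11. Over the 4 pools chow was the highest for 7 of the 9 genes and the Chrebp-null pool for the other 2, Hspa5 and Dnajb9. The 3-week WT pool was the lowest for 6, the 2-week WT pool for Dnajb9 and Manf, and the Chrebp-null pool for Xbp1. The highest and lowest pools were not counted over all genes. Of all genes assessed 56.5% were below chow in the 3-week WT pool and 55.5% in the 2-week WT pool.

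Between Chrebp-null and WT livers at 2 weeks each ER chaperone gene and Xbp1 differed by less than 1.5-fold. Of the 9 genes, 6 were higher and 3 lower in the null pool, and the median was 0.13. The 11631 genes assessed had a median of 0.10, and 36.5% of them were below 0. Of all genes assessed 1.43% passed 2-fold downward, 2.03% passed 2-fold upward and 9.16% passed 1.5-fold upward. At 1.5-fold 441 of the 11631 passed downward and 1065 upward, so most genes differed by less than 1.5-fold too. With each array centred on its median, the 9 genes had a median of 0.03 and all genes one of -0.01, so the distance between the medians was 0.04, against 0.03 on the deposited values. The split of all genes past 2-fold was 166 lower and 236 higher on the deposited values, 209 and 155 with centring, 180 and 181 with quantile normalization, and 225 and 140 with the level trend removed.

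Of the 9 genes Dnajb9 had the largest difference in the null pool, 9.47 against 8.97 in the 2-week WT pool (0.49), with 87.1% of all genes below it. Hspa5 read 8.75 in the null pool, against 8.43 in the 2-week WT pool (0.32), and Creld2 7.58, against 7.27 (0.31). Against the 3-week WT pool Hspa5 stood at 0.67, Creld2 at 0.46 and Dnajb9 at 0.27, with the null array shared. These 3 genes, and Hyou1 and Hsp90b1, were higher in the null pool than in either WT fructose pool. Most genes were higher there too, since only 36.5% of those assessed were below the 2-week WT pool and 37.8% below the 3-week WT pool. Genes higher than both WT fructose pools were not counted over all genes. The median of all genes was 0.10 over the 2-week WT pool and 0.11 over the 3-week WT pool. Manf read 4.33 in the null pool, against 4.12 in the 2-week WT pool, but -0.10 from the 3-week WT pool. Hyou1 and Hsp90b1 stood at 0.13 and 0.09 over the 2-week WT pool, and at 0.36 and 0.11 over the 3-week WT pool. Over the 2-week WT pool Hsp90b1 turned to -0.02 with centred arrays.

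Pdia6, Sdf2l1 and Xbp1 read slightly lower in the null pool. Pdia6 read 9.52, against 9.67 in the 2-week WT pool (-0.15), and Sdf2l1 5.91, against 6.00 (-0.10). Both turned sign against the 3-week WT pool, to 0.49 and 0.24. Xbp1 read 8.65 in the null pool, against 8.74 in the 2-week WT pool (-0.09), and -0.22 from the 3-week pool, so the null pool was below both WT fructose pools.

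**Figure D3:**
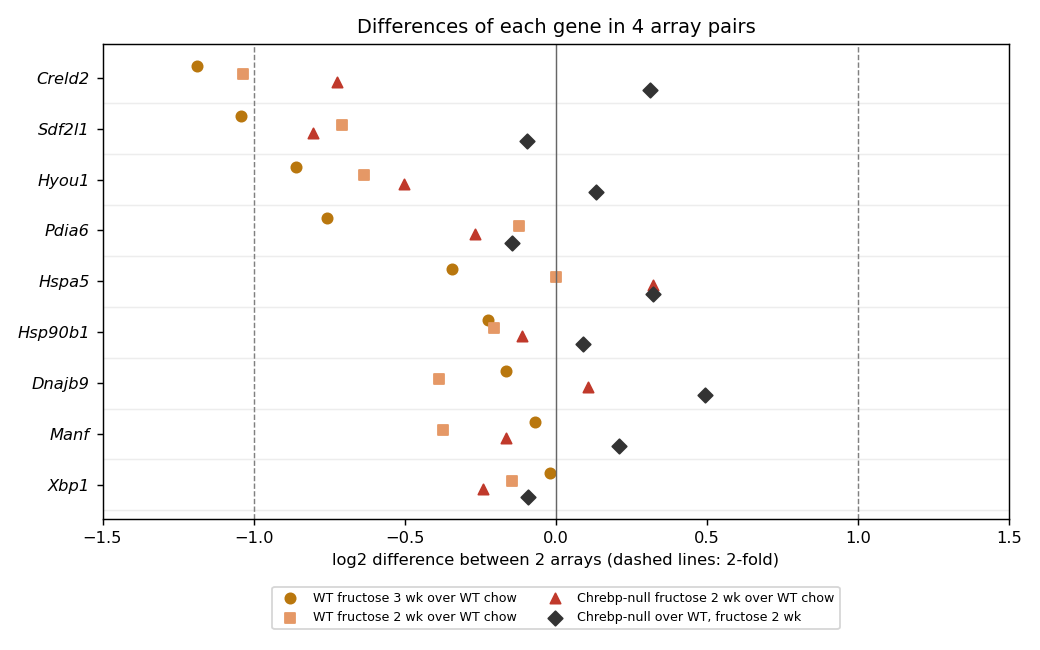
Log2 difference of each gene (horizontal axis) in 4 array pairs; dashed lines mark 2-fold. The 3 pairs over chow share that array, and Creld2, Sdf2l1 and Hyou1 lie at -0.50 or below in each of them, while all 9 values of Chrebp-null over WT at 2 weeks lie between -0.15 and 0.49.

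Other genes of ER folding and quality control were described from 7 lists that do not hold the 10 genes. In the fructose comparison 82 of their genes could be assessed, of which 62 were lower and 20 higher, with a median of -0.17. All genes assessed had a median of -0.05, and 56.5% of them were below 0. None of the 82 passed 2-fold in either direction. Past 1.5-fold downward stood 5 of the 82, a smaller share than the 7.05% of all genes. Sec61b, a subunit of the translocation channel, was at -0.98, and Derl3, a factor of ER-associated degradation, at -0.77. Ganab, which trims glucose from glycans, was at -0.73, Dnajb11, an Hsp40 partner of BiP and of Sdf2l1, at -0.65, and the disulfide isomerase Txndc5 at -0.60. Sec61b read 2.88 after 3 weeks of fructose, below the floor, and stands at -0.34 with that level set at the floor. Derl3 read 3.56 in the same pool, just above the floor of 3.52. In the 2-week WT pool over chow Dnajb11 stood at -0.64, Txndc5 at -0.21, Ganab at 0.21 and Derl3 at -0.01, with a median of -0.07 over the 82 genes. Dnajb11 was thus lower than chow by about the same amount in both WT fructose pools, and Ganab was lower at 3 weeks and higher at 2 weeks.

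By function, the medians in the fructose comparison were -0.26 for 7 Hsp70 partners of the ER, -0.24 for 10 lectin chaperones and glycan-trimming genes, -0.23 for 15 genes of ER-associated degradation, -0.21 for 12 of disulfide formation and -0.19 for 20 of translocation and N-glycosylation. The export coat had a median of -0.10 over 12 genes and the prolyl isomerases 0.05 over 6. Chaperones of other compartments had medians of 0.02 for 10 cytosolic heat shock genes and -0.01 for 8 mitochondrial ones. The order of these lists did not hold in the 2-week WT pool over chow. There the medians were -0.13 for the Hsp70 partners, -0.09 for the lectin chaperones, -0.04 for ER-associated degradation, -0.12 for disulfide formation and -0.09 for translocation, against -0.14 for the cytosolic and -0.10 for the mitochondrial chaperones. Of 81 ER genes in the Chrebp-null comparison 30 were lower and 51 higher, with a median of 0.08. Of the 11631 genes assessed there 36.5% were lower, and their median was 0.10. Among the 81 ER genes only Ero1b, a disulfide oxidase gene, passed 2-fold. It read 6.80 in the null pool, against 7.92 in the 2-week WT pool (-1.11). The related oxidase Ero1a stood at 0.60 and Selenos, a subunit of the degradation complex, at 0.78.

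The sensors and the proteases that release ATF6 were all below chow in the fructose comparison, 7 of 7. Their median was -0.47 and none passed 2-fold. All genes assessed had a median of -0.05, and 56.5% of them were below 0. Atf6b, a relative of ATF6, read 5.005 after 3 weeks of fructose, against 5.71 on chow (-0.71), and 4.52 in the 2-week WT pool (-1.20). Eif2ak3, which encodes the sensor PERK, stood at -0.58, the liver ATF6 relative Creb3l3 at -0.54, the protease gene Mbtps1 at -0.47 and Ern1 at -0.40. Atf6 was at -0.06 and the second protease gene, Mbtps2, at -0.0044. In the 2-week WT pool over the same chow array 4 of the 7 were lower and 3 higher. Their median was -0.05, against -0.04 over all genes, and Ern1 stood at 0.11. In the Chrebp-null comparison the median was 0.05, against 0.10 over all genes, with Atf6b at 0.81, Mbtps2 at 0.53 and Ern1 at -0.42.

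The PERK branch acts in part through ATF4. Of its 10 genes, 4 passed 2-fold upward in the null pool over the 2-week WT pool, where 2.03% of all genes did and none of the 9 chaperone and Xbp1 genes. They were Asns at 1.78, Psat1 at 1.61 (0.83 with its WT level set at the floor), Nupr1 at 1.57 and Ddit3, which encodes CHOP, at 1.17. In the fructose comparison the median of 9 genes was -0.42, with Sesn2 at -1.05 and Trib3 at -0.78, and with Vldlr at 0.53 and Nupr1 at 0.45 above chow. In the 2-week WT pool over chow the median was -0.18.

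**Figure D4:**
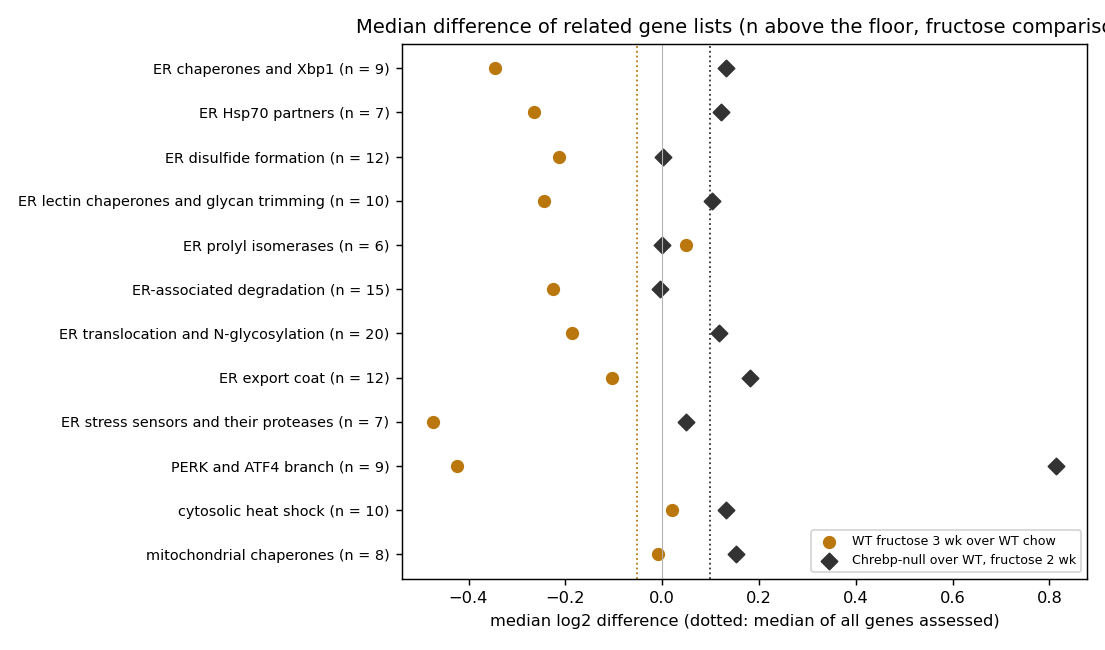
Median log2 difference of each gene list in the fructose comparison (circles) and the Chrebp-null comparison (diamonds); dotted lines mark the median of all genes assessed, -0.05 and 0.10. The ER chaperones and Xbp1 lie at -0.34 and 0.13, and the PERK and ATF4 branch at -0.42 and 0.81.

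Genes with an ERSE in the promoter table were looked at whatever their function. Of the 37 genes, 29 had a value and 17 were above the floor, 4 of them the genes printed above. The other 13 had a median of -0.28 in the fructose comparison, with 10 of them below 0 and none past 2-fold, against a median of -0.05 over all genes. In the 2-week WT pool over the same chow array their median was -0.09, against -0.04 over all genes. The genes named here were chosen after their values were seen. Those that also stand in the ER lists were Derl3 at -0.77, the ubiquitin ligase gene Syvn1 at -0.49, Ero1b at -0.29, the lectin chaperone genes Canx and Calr at -0.28 and -0.17, and the Hsp40 gene Dnajc3 at -0.02. Acacb, a carboxylase of fatty acid metabolism, stood at 0.85, and Acnat2, an acyltransferase gene, at 0.47. In the Chrebp-null comparison the median of the 13 was 0.06, with Ero1b at -1.11 and Acacb at -1.53 past 2-fold.

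The mean profile of the 9 genes over the 4 arrays, each gene taken as its distance from its own mean, was 0.03 in the Chrebp-null pool, -0.22 in the 3-week WT pool, -0.10 in the 2-week WT pool and 0.30 in the chow pool. Among 5238 other genes above the floor with at least the same range, 0.52, the closest were Pip4k2b, Fubp1, Zfp414, Ncaph2 and Psmb10, at root mean square distances from 0.022 to 0.036. The distances of the 9 genes, which were not held to that range and were not picked for closeness, ran from 0.11 for Hsp90b1 to 0.27 for Creld2. With 4 arrays such a likeness is a description only.

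Markers of other cell types are given because ER chaperone RNA is abundant in secretory cells, and because in whole liver fewer cells of a type and less RNA per cell cannot be told apart. Hepatocyte markers, 10 of 10 above the floor, had summed linear levels of 31154 after 3 weeks of fructose, against 31886 on chow. Their sum was 32209 in the null pool, against 32256 in the 2-week WT pool. It rests mostly on the most abundant markers. Gene by gene, 6 of the 10 were lower in each comparison, with medians of -0.08 and -0.01. Of 9 plasma and B cell markers 2 were above the floor in a pool, Jchain and Cd79a, and of 7 pancreatic acinar markers 1, Ctrb1. The other 7 and 6 were below the floor in all pools, and the sums include them, so no difference in these cells can be read from the sums. The plasma cell sum was 97.5 after 3 weeks of fructose, against 98.6 on chow, and 101 in the null pool, against 109 in the 2-week WT pool. The acinar sum was 48.6 after 3 weeks of fructose, against 50.5 on chow, and 46.2 in the null pool, against 39.7 in the 2-week WT pool. Sinusoidal endothelial markers, 10 of 10 above the floor, summed to 2819 after 3 weeks of fructose, against 2431 on chow, and to 2479 in the null pool, against 2875 in the 2-week WT pool. Macrophage markers, also 10 of 10, summed to 1604 after 3 weeks of fructose, against 1654 on chow, and to 2298 in the null pool, against 2093 in the 2-week WT pool. Most of these markers were lower in both comparisons, 7 of 10 on fructose (median -0.19) and 6 of 10 in the null pool (median -0.09), where Marco alone stood at 2.66. Stellate cell markers, 8 of 8, summed to 1939.7 after 3 weeks of fructose, against 1813 on chow, and to 2079.8 in the null pool, against 2089.7 in the 2-week WT pool. Of these 8 markers 5 were lower in each comparison, with medians of -0.12 and -0.06, and Lrat stood at 0.55 on fructose. Of 6 cholangiocyte markers 3 were above the floor, and of 8 T cell and neutrophil markers 3.

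The share of each sex per pool is not given, and sex-linked genes differed between pools. In the Chrebp-null comparison Xist stood at -1.53 and the Y-linked genes Eif2s3y, Kdm5d and Uty at 0.84, 0.76 and 0.53. In the fructose comparison Xist stood at -0.07 and these 3 at -0.12, 0.04 and 0.64. Among 10 male-biased liver genes, 7 passed 2-fold downward in the Chrebp-null comparison, with a median of -1.57, and 6 female-biased genes had a median of -0.64. In the fructose comparison these medians were 0.22 and 0.41, the second over 7 genes, and in the 2-week WT pool over chow they were -0.36 and -3.00. The part of cell makeup and of the share of each sex in these results was not tested.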

How the data were processed

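Liver RNA was pooled by genotype and diet and hybridised to 1 array per pool, as the labels' protocols state. The authors deposited log2 values of 41345 probe sets on 4 arrays, made with affy and RMA per the submitters' processing notes. Versions and settings, not given in the sources used here, are unknown, and array medians lay between 3.11 and 3.17. RMA tends to compress large differences. Arrays hold no read depth, and their number limits the precision.

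Values were used as deposited. Gene symbols came from the platform annotation (1 symbol for 23521, several for 1814, none for 16010), and 23328 of the first kind matched GRCm38.p6 identifiers with 0 changed symbols. The set with the highest mean was used for each of 22180 genes. Differences were called at 2-fold above the floor, with no test, since each pool has 1 array. The counting was run on simulated arrays with planted changes, all larger than any difference of the 9 measured members. Changes near 2-fold were thus not checked. The members, lists, named genes, floor and threshold were chosen with earlier results of these data known. Named genes are the 9 measured members, Mlxipl, up to 4 genes per list and comparison by size of difference, sex-linked genes and the 5 genes of closest profile. Outside this rule, chosen after their values were seen, are Atf6, Calr, Canx, Dnajc3, Acacb and Acnat2. The planned median over 10 genes was taken over 9. Promoters came from the RefSeq table. Alternatives were the floor, threshold, centring, quantile normalization, trend removal (lowess, fraction 0.3), probe set averaging, levels set at the floor and the choice of WT fructose array. Python 3.11.15, numpy 2.4.6, pandas 2.3.3, scipy 1.17.1, statsmodels 0.14.6 and matplotlib 3.10.9 were used.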

Additional observations from a re-analysis of the deposited data

Results flagged for a closer look

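Sesn2, an ATF4 and p53 target of the stress response, was lower in WT liver after 3 weeks of fructose by a log2 difference of -1.046 from chow and higher after 2 weeks by 0.13 from the same chow array. It read 4.04 in the 3-week pool, 5.22 in the 2-week pool and 5.09 in the chow pool. The difference between the times was not tested, since each pool has 1 array.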

How the results depend on the processing

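No paired analysis was possible because each group has 1 array. In the fructose comparison the count of members at least 2-fold lower, 2 as reported, was 1 with quantile normalization, with the level trend removed, with the 2-week WT array and with the mean of both WT fructose arrays, Creld2 in each case. It was 4 at 1.5-fold and 0 at 3-fold. The median, -0.34 as reported, was -0.55 over 8 genes with the floor at the 75th percentile, which leaves out Manf, and -0.28 with both WT arrays. In the Chrebp-null comparison the counts of 0 in each direction and the sign of the median were the same under every alternative run. The medians lay between 0.03 and 0.27. Several alternatives could not raise a count of 0, namely the 3-fold threshold, the changes of floor, probe set averaging and levels set at the floor. Of 63 recomputed member values per comparison, 5 in each moved by more than 0.30. That limit is the spread of a gene between the WT fructose pools divided by the square root of 2. The 5 were Hspa5, Pdia6, Sdf2l1 and Manf with the other WT fructose array and Pdia6 with the mean of both. Exchanging that array shifts a gene by the same amount in both comparisons, so the equal counts carry no separate weight. The limit comes from the same 2 arrays. Probe set averaging and levels set at the floor could not move any member, each with 1 probe set and above the floor. The sign turned for 1 member in the fructose comparison and for 4 in the Chrebp-null comparison. Over all genes, the counts lower and higher in the fructose comparison (136 and 75) were 77 and 38 with both WT arrays, 826 and 418 at 1.5-fold, 15 and 14 at 3-fold and 103 and 40 with the higher floor. In the Chrebp-null comparison (166 and 236) they were 225 and 140 with the trend removed, 209 and 155 with centring, 230 and 398 with the 3-week array, 110 and 87 with the higher floor, 441 and 1065 at 1.5-fold and 54 and 46 at 3-fold. The cause of these shifts was not tested, and a single array per pool limits every value.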
